A study of Homo sapiens with 4 samples.

Results

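SON, CREBBP, EP300, SOCS2, NR1H3 and HIVEP2 are 6 transcripts that earlier work described as substrates of YTHDF2, and they were chosen by name. All 6 were found among the 28283 genes of the FPKM table, and they had 21 of the 31057 distinct m6A peaks of control cells and 10 of the 27344 distinct peaks of YTHDF2 knockdown cells. The cells were A549, a human lung adenocarcinoma line. Control cells (shNC) carried the control vector pLKO.1, and knockdown cells (shY2-2) carried 1 shRNA against YTHDF2, introduced by lentivirus and selected with puromycin. The time from selection to harvest was not given. Poly(A) RNA of both lines was fragmented, and 1 library was made from it directly (input) and 1 after pull-down with an antibody against m6A (IP), which makes 4 libraries in all.

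YTHDF2 is a cytoplasmic protein that binds N6-methyladenosine (m6A) in mRNA and recruits the CCR4-NOT deadenylase complex, which shortens the poly(A) tail and starts decay of the bound mRNA. In that model a transcript bound by YTHDF2 is kept low while the reader is present, and the methyl mark itself is written by other proteins, the METTL3 complex. The 6 genes have different functions. SON is a nuclear speckle protein needed for splicing, CREBBP (CBP) and EP300 (p300) are paralogous lysine acetyltransferases that act as transcription coactivators, SOCS2 is an inhibitor of growth hormone and cytokine signalling through JAK and STAT proteins, NR1H3 (LXRα) is a nuclear receptor for oxysterols, and HIVEP2 is a large zinc finger transcription factor.

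The letters under the peaks that the results below turn on are shown here, because m6A is most often found at the A of a GGAC or GGACU context in mRNA. Each window has 21 bases of GRCh38, read 5′ to 3′ on the strand of the gene, with the GGAC or GGACT nearest the middle of the peak in capitals. For SON, CREBBP and SOCS2 the window comes from the stretch covered in both peak lists at the strongest control peak that had a counterpart in knockdown cells. HIVEP2 had no such peak, and its window comes from its strongest control peak, a choice made after its values were seen.
SON, 3′UTR, + strand, chr21:33576971-33576991: gttctgctGGACagataatgg
CREBBP, coding exon 2, - strand, chr16:3850569-3850589: cacagactGGACctggtatct
SOCS2, end of the coding sequence, + strand, chr12:93575112-93575132: ccatctggGGACTgcctttac
HIVEP2, coding exon 10, - strand, chr6:142753617-142753637: ttctccaaGGACccctatgtg
The SON site lay 557 nt beyond the last base of the stop codon, and the SOCS2 site lay 57 nt before that base. The shared stretch held only 1 GGAC in SON (600 nt), in CREBBP (150 nt) and in SOCS2 (210 nt). The strongest control peaks of EP300 (61 nt) and NR1H3 (90 nt) held no GGAC, so no window is shown for them. A match of 4 letters is a description of the window and does not place a methyl group.

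The input libraries were checked first for the targeted gene. YTHDF2 was listed at 3.56 FPKM in shNC and at 1.02 FPKM in shY2-2, a log2 ratio of -1.18. FPKM scales the fragments of a gene to its length and to the mapped fragments of its library, so it is a level relative to each library and not an amount per cell. All ratios here are log2((FPKM shY2-2 + 1)/(FPKM shNC + 1)), a scale that understates differences of low genes, and were taken over the 12268 genes with at least 1 FPKM in at least 1 input library. Of 7 A549 and epithelial markers, KRT8, KRT18, AKR1B10, NQO1 and ALDH1A1 lay between 281 and 2157 FPKM, AKR1C1 was at 67.6 FPKM in shNC and 64.9 FPKM in shY2-2, and KRT19 was at 25.9 and 12.9 FPKM, and CDKN2A, which is deleted in A549, lay at or below 0.0178 FPKM. PTPRC, CD3E, PECAM1, COL1A2 and SFTPC, markers of other cell types, were at or below 0.395 FPKM in both libraries. With 1 library per condition there is no replicate error, so every difference between conditions below describes these libraries, carries no p-value, and is judged by its size.

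On this scale, none of the 6 transcripts differed by 2-fold or by 1.5-fold between shNC and shY2-2 cells. SOCS2 and NR1H3 were higher in knockdown cells, CREBBP was nearly equal, and SON, EP300 and HIVEP2 were lower. Counted by sign, 3 of 6 were above 0, as were 50.3% of all genes kept, and 3 of 6 were below 0, as were 49.7% of all genes kept. The median log2 ratio of the 6 was -0.02, against 0.00 for all genes. Of all genes kept, 0.986% were more than 2-fold higher and 2.14% more than 2-fold lower in shY2-2, and with a 1.5-fold limit these shares were 5.38% and 8.92%.

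The coactivator and splicing genes were the most abundant of the group and the closest to equal. SON (chr21:33542618-33577481, + strand) was at 10.1 FPKM in shNC and 9.61 FPKM in shY2-2, a log2 ratio of -0.06. EP300 (chr22:41091786-41180079, + strand) was at 7.28 FPKM in shNC and 6.61 FPKM in shY2-2, a log2 ratio of -0.12. CREBBP (chr16:3725054-3880726, - strand) was at 4.89 FPKM in shNC and 4.97 FPKM in shY2-2, a log2 ratio of 0.02. These 3 ratios lay between the 37.3 and 51.8 percentiles of all genes kept. The acetyltransferase paralogs thus stood on opposite sides of 0, each by a small difference.

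The signalling and receptor genes were lower in level and farther apart. SOCS2 (chr12:93569814-93583487, + strand) had the largest difference of the 6, from 1.16 FPKM in shNC to 2.10 FPKM in shY2-2. That was an FPKM ratio of 1.81, the only one of the 6 past 1.5 without a pseudocount, and a log2 ratio of 0.52 at the 92.6 percentile. NR1H3 (chr11:47248300-47269032, + strand) went from 2.84 FPKM in shNC to 3.73 FPKM in shY2-2, an FPKM ratio of 1.31 and a log2 ratio of 0.30, at the 79.8 percentile. HIVEP2 (chr6:142751467-142956698, - strand) stood the other way, at 1.88 FPKM in shNC and 1.36 FPKM in shY2-2, a log2 ratio of -0.28 at the 23.8 percentile. For comparison, the quartiles of all genes kept were -0.26 and 0.24, and the 5 and 95 percentiles were -0.76 and 0.60. HIVEP2 and NR1H3 were therefore just outside the quartiles, SOCS2 was well outside them, and all 6 were within the wider range.

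The size of these ratios was read against the level at which each gene was measured. By mean FPKM, SOCS2 and HIVEP2 stood at the 16.1 and 15.8 percentiles of the genes kept, NR1H3 at 36.1, CREBBP at 48.9, EP300 at 59.9 and SON at 69.6. The order of levels was SON, EP300, CREBBP, NR1H3, HIVEP2 and SOCS2 in shNC cells, and in shY2-2 cells SOCS2 stood above HIVEP2. Since no spread between libraries could be measured, whether neighbours in this order differ beyond it could not be judged. With a pseudocount of 0.1, the log2 ratio of SOCS2 was 0.80 and that of HIVEP2 was -0.43.

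**Figure D1:**
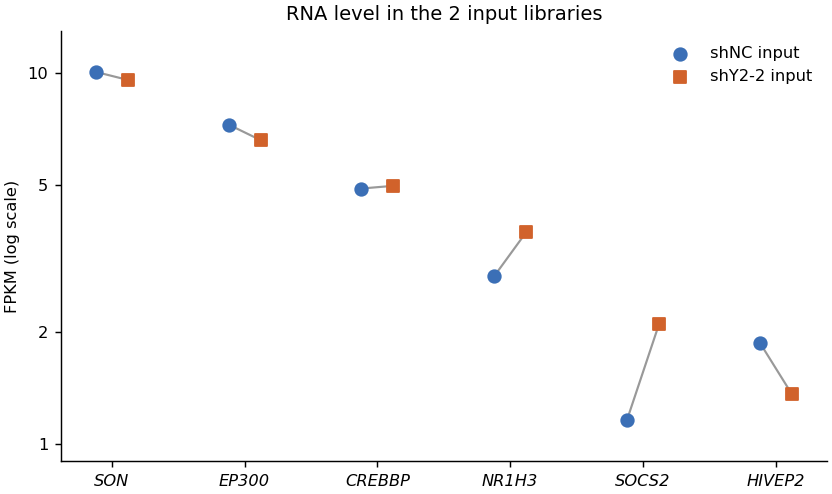
FPKM of the 6 transcripts (log axis) in the shNC input library (circles) and the shY2-2 input library (squares), 1 library each, with a line joining the values of 1 gene. SON, EP300 and CREBBP are nearly level, SOCS2 goes from 1.16 to 2.10 FPKM, NR1H3 from 2.84 to 3.73 FPKM and HIVEP2 from 1.88 to 1.36 FPKM.

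**Figure D2:**
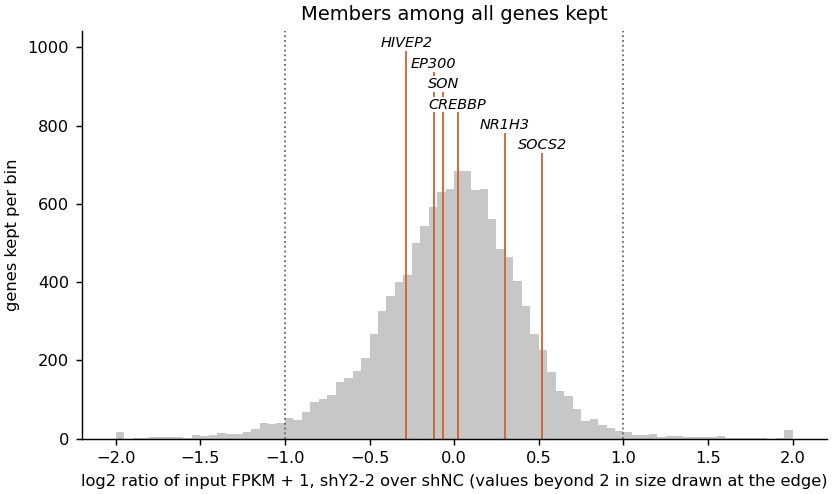
Histogram of the log2 ratio of input FPKM + 1 (shY2-2 over shNC) for the 12268 genes kept, with the 6 transcripts as vertical lines and the 2-fold limits dotted; 34 genes beyond 2 in size are drawn at the edges. All 6 lines fall between -0.28 and 0.52, inside the dotted limits.

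The m6A peaks of these transcripts were mostly in coding sequence, and 4 of the 6 had fewer listed peaks in knockdown cells, a count that depends on the peaks admitted. A peak is a stretch where IP reads exceeded input reads, and its fold enrichment is the ratio of IP over input. SON had 9 distinct peaks in shNC and 6 in shY2-2, CREBBP had 4 and 1, NR1H3 had 2 and 0, and HIVEP2 had 3 and 0. EP300 had 1 and SOCS2 had 2 peaks in each list. Thus 4 of 6 had fewer peaks in shY2-2, against 42% of all genes with a peak in either list, and 0 of 6 had more, against 30.8% of such genes. At an FDR of at most 0.05, SON had 7 peaks in shNC and 4 in shY2-2, CREBBP 2 and 0, and SOCS2 1 and 1. EP300, NR1H3 and HIVEP2 had 0 in both lists at that limit. Counting only peaks fully on its own exons, EP300 had 1 and 0. All 6 had a control peak, and 4 of these 6 also had a knockdown peak by name, against 84.3% of all genes with a control peak.

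The names of some peaks did not match the exons under them. The lists give the strand of the named gene only. The paper describes the libraries as strand-specific, but whether strand was used in peak calling is not given in the sources used here. The only EP300 peak in shY2-2 (chr22:41174790-41197456, 258 nt in 3 blocks) had 0 nt on exons of EP300. All its 258 nt lay on exons of EP300-AS1, the antisense gene, with the same splice junctions, although EP300-AS1 was listed at only 0.0984 FPKM in shNC and 0.0402 FPKM in shY2-2. In SON, 1 peak of each list (358 nt in shNC and 417 nt in shY2-2) lay wholly on exons of DONSON, which runs the other way over the end of SON, with 103 and 149 nt on SON exons. No single annotated transcript, of DONSON or of SON, held all the splice junctions of either peak. DONSON was listed at 4.48 FPKM in shNC and 4.77 FPKM in shY2-2. With these peaks left out, 20 of 21 control peaks and 8 of 10 knockdown peaks remained, against 87.1% and 85.3% of all peaks lying fully on exons of the gene they are named for. SON, CREBBP and SOCS2 were then the 3 transcripts with a peak in both lists.

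SON held the largest peak set, at the 99.3 percentile of genes with a control peak by number. Of its control peaks, 5 lay in exon 3, a single coding exon that holds most of the SON protein code. They had fold enrichments of 1.48, 1.30, 1.49, 1.49 and 1.22 from 5′ to 3′. Of these 5, the third (chr21:33553045-33553194) was found at the same position in shY2-2 with a fold enrichment of 1.42, and the fifth (chr21:33554182-33554511) met a knockdown peak of 1.24. The other 3 met none. A further control peak in this exon (chr21:33550620-33550800, fold enrichment 1.32, FDR 0.261) was listed under the microRNA gene MIR6501, which lies inside the exon, and is not in the counts above.

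At the 3′ end of SON, both lists agreed in position. A peak over the last coding exons, 9 to 12 (chr21:33573323-33576403, 360 nt in 4 blocks), had the same ends in both lists, with fold enrichments of 1.52 in shNC and 1.60 in shY2-2. Of its 360 nt, 153 also lay on DONSON exons, but its junctions were those of SON. The 3′UTR peak, whose sequence window is printed above, had the lowest FDR of the 6 transcripts in each list, with values of 7.08e-06 in shNC and 2.88e-05 in shY2-2. Its fold enrichment was 2.48 over 689 nt in shNC and 2.20 over 600 nt in shY2-2. Both versions ended at the last base of the reference transcript.

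The 2 remaining SON peaks lay on exons of other isoforms. The control one (chr21:33558570-33558630) had a fold enrichment of 1.5 and an FDR of 0.292, and the knockdown one (chr21:33569583-33569763) had 4.63 and 0.443. Neither met a peak of the other list.

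CREBBP and EP300 differed in their peaks, although their reference transcripts are alike in build, with 31 exons each and coding sequences of 7329 and 7245 nt. CREBBP had a peak in coding exon 2 in both lists, chr16:3850556-3850705 in shNC with a fold enrichment of 1.92 and an FDR of 0.0209, and the wider chr16:3850526-3850765 in shY2-2 with 1.73 and 0.0692. Its other control peaks lay in coding exon 31 (chr16:3729339-3729489, fold enrichment 1.64, FDR 0.0195), on an exon of another isoform (2.29 and 0.175) and in the 3′UTR (6.10 and 0.484). None of these 3 met a knockdown peak. EP300 had a single control peak of 61 nt in coding exon 31 (chr22:41178281-41178341), with a fold enrichment of 1.27 and an FDR of 0.290, and no knockdown peak on its exons.

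SOCS2 was the only one of the 6 with a peak across the stop codon, and it was there in both lists. The control peak (chr12:93575082-93576161) covered 98 nt of coding sequence and 982 nt of 3′UTR with a fold enrichment of 2.02 and an FDR of 0.0245. The knockdown peak (chr12:93574932-93575291) covered 248 nt of coding sequence and 112 nt of 3′UTR with 1.93 and 0.0275. The 210 nt that both covered held the GGACT printed above. A second knockdown peak of 61 nt in the 3′UTR (fold enrichment 2.44, FDR 0.194) lay inside the long control peak, so that both SOCS2 peaks of shY2-2 met it. A control peak of 181 nt at coding exon 1 (1.51 and 0.200) met no knockdown peak. Of its length, 114 nt lay in the reference transcript and the others on exons of other SOCS2 isoforms.

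NR1H3 and HIVEP2 had peaks in control cells only, and none of these had an FDR of 0.05 or less. In NR1H3, the control peaks lay at the 5′UTR (chr11:47258108-47258227, fold enrichment 6.87, FDR 0.594) and in the 3′UTR (chr11:47268883-47268972, 8.39 and 0.112). These were the highest fold enrichments of the 21 control peaks. Of the 120 nt of the first, 22 lay in the reference transcript and the others on exons of other NR1H3 isoforms. In HIVEP2, 1 control peak lay in coding exon 5 (fold enrichment 2.29, FDR 0.321). The other 2 overlapped each other in coding exon 10, chr6:142753556-142753730 (4.20 and 0.157) and chr6:142753442-142753741 (2.80 and 0.132), and 175 and 236 nt of them also lay on exons of an antisense noncoding gene, ENSG00000233138. NR1H3 RNA was higher and HIVEP2 RNA lower in shY2-2. Whether the RNA level of a transcript went with its listed peaks was not tested.

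**Figure D3:**
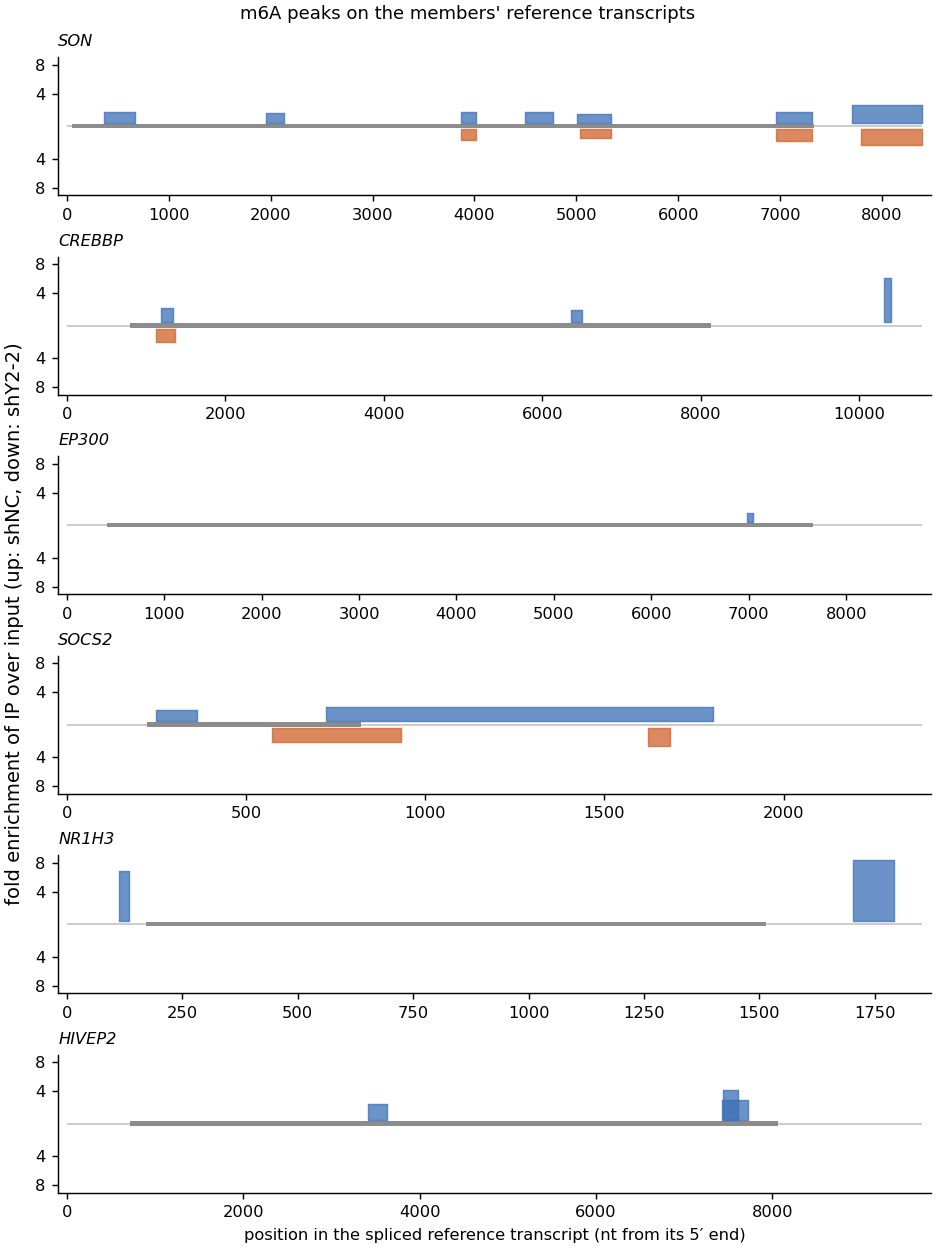
Peaks along the spliced reference transcript of each gene (x axis, nt from the 5′ end; thick grey, coding sequence; thin grey, UTRs), with fold enrichment as height, shNC upward and shY2-2 downward; each box spans 1 peak, and only peaks on the reference transcript and fully on exons of the named gene are drawn. Boxes face each other in SON, CREBBP and SOCS2 only, and EP300, NR1H3 and HIVEP2 have none below the line.

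High fold enrichment went with a high FDR among these peaks. The control peaks above a fold enrichment of 4 were those of NR1H3, of HIVEP2 exon 10 and of the CREBBP 3′UTR, with FDR values between 0.112 and 0.594. In shY2-2 they were the EP300-AS1 peak, at 6.94 with an FDR of 0.979, and the SON peak on another isoform. Such values were repeated through the lists: 8.39 was the fold enrichment of 353 control peaks, 6.87 of 626 and 6.10 of 593, while the median number at the 10 nearest values, in steps of 0.01, was 0. In shY2-2, 6.94 was shared by 1376 peaks. By contrast, the value 2.48 of the SON 3′UTR peak was shared by 178 control peaks, with a median of 67 at the nearest values. The read counts behind the peaks were not in the files used here.

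Pooled over all peaks of the 6 transcripts, the median fold enrichment was 1.75 in shNC and 2.00 in shY2-2, against 2.17 and 2.26 for all peaks. Counting only peaks fully on exons of the named gene, these medians were 1.78 and 1.83. SON gave 9 of the 21 control peaks, with a median of 1.49 and 1 peak above that of the list. Without SON, the 12 control peaks had a median of 2.29, above the list, and the 4 knockdown peaks one of 2.185. All 5 control peaks of NR1H3 and HIVEP2 lay above the median of the list, while those of EP300 and SOCS2 lay below it. In shNC, 8 of 21 lay above the median of the list, and in shY2-2, 3 of 10. An FDR of at most 0.05 was reached by 10 of 21 control peaks (47.6%) and 5 of 10 knockdown peaks, against 56.4% and 52.1% of all peaks. These 10 were 7 of SON, 2 of CREBBP and 1 of SOCS2, and the 5 were 4 of SON and 1 of SOCS2. Only the SON 3′UTR peak had an FDR of at most 0.001, in both lists.

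By position on the reference transcript, 15 of 21 control peaks touched coding sequence and 4 of 21 touched the 3′UTR, against 53.4% and 48.2% of all control peaks of coding genes. In shY2-2, 6 of 10 touched coding sequence and 3 of 10 the 3′UTR, against 47.9% and 50.3%. Of the 15 control peaks on coding sequence, 7 were of SON, 3 of HIVEP2, 2 each of CREBBP and SOCS2 and 1 of EP300, and of the 6 knockdown peaks, 4 were of SON. Coding sequence was long in SON, CREBBP, EP300 and HIVEP2, between 7245 and 7341 nt, which placed them between the 98.4 and 98.5 percentiles of 10686 expressed coding genes, with a median of 1368 nt. SOCS2 (597 nt) and NR1H3 (1344 nt) were not long, and their 3′UTRs were 1566 and 337 nt. The location column deposited with the peaks put 7 control and 7 knockdown peaks in a 3′UTR, more than the 4 and 3 found on the reference transcripts. The peaks over SON exons 9 to 12, those on DONSON or EP300-AS1 exons and those on other SON isoforms were among these.

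GGAC on the strand of the gene was found in 10 of 21 control peaks and 8 of 10 knockdown peaks, against 61% and 60.6% of all peaks. Counting only peaks fully on exons of the named gene, it was in 10 of 20 and 6 of 8. The longer GGACT was in 1 control peak, that of the SOCS2 stop codon, and in 3 knockdown peaks, of which 1 lay on DONSON exons. The transcripts themselves hold more of these letters than the peaks cover: GGAC occurred 25 times in SON, 41 in CREBBP, 34 in EP300, 12 in SOCS2, 8 in NR1H3 and 38 in HIVEP2. Peaks covered 27.2% of the SON transcript in shNC and 16.8% in shY2-2, and 50.0% and 17.6% of SOCS2. CREBBP went from 3.62% to 2.22%, EP300 from 0.695% to 0%, NR1H3 from 6.05% to 0% and HIVEP2 from 5.26% to 0%.

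Peaks were then compared by position. Of the control peaks, 7 of 21 shared at least 1 exonic nt with a knockdown peak, against 55.9% of all control peaks. Of the knockdown peaks, 8 of 10 met a control peak, against 65.4% of all knockdown peaks. The 14 control peaks that met none were 4 of SON, 3 of CREBBP, 1 of EP300, 1 of SOCS2, 2 of NR1H3 and 3 of HIVEP2. Among them, those in SON exon 3 and the one in the coding part of CREBBP exon 31 had an FDR below 0.05. The others, with the CREBBP peak in the 3′UTR part of exon 31, did not. The largest p-value in either list was 0.049, so a stretch with a weaker signal is in neither, and absence from a list does not show an absence of m6A.

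Where a peak was found in both lists, its enrichment was alike. There were 7 such pairs, 5 in SON, 1 in CREBBP and 1 in SOCS2, and their median log2 ratio of fold enrichment (shY2-2 over shNC) was -0.07, against -0.06 for 17174 pairs of all genes. The ratios ran from -0.17 for the SON 3′UTR peak to 0.24 for the SON peak on DONSON exons. For the SOCS2 peaks across the stop codon the ratio was -0.07, and in CREBBP exon 2 it was -0.15. None of the 7 pairs passed 1.5-fold, while 11% of all pairs were more than 1.5-fold higher and 14.6% more than 1.5-fold lower in shY2-2. The 7 had low control fold enrichments, between 1.22 and 2.48, and a difference from these shares was not tested. The 2 SOCS2 peaks of this pair differed in extent, 1080 nt in shNC and 360 nt in shY2-2, with 210 nt shared. Enrichment over the shared stretch alone was therefore not measured. SOCS2 RNA was listed at 1.81 times the control level.

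**Figure D4:**
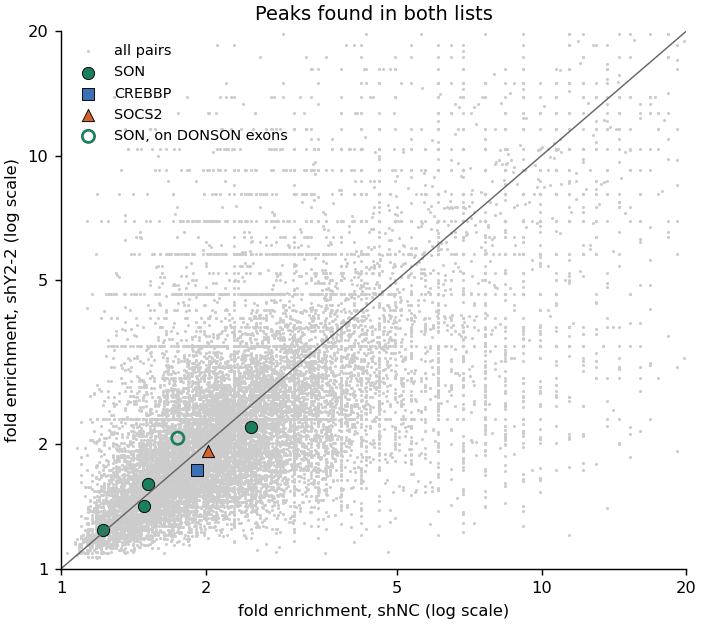
Fold enrichment in shNC (x) and shY2-2 (y), both on log axes, of peaks found in both lists, for all genes (grey) and for SON, CREBBP and SOCS2 (coloured; open circle, the SON peak on DONSON exons), with the line of equality; 212 pairs beyond 20 are not shown. The 7 marked pairs lie near the line, between 1.22 and 2.48 on the shNC axis, in the lower part of the cloud.

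Genes around the 6 were described from lists by function, with no gene of any list past 2-fold in either direction at the pseudocount of 1. Of all genes kept, 0.986% were more than 2-fold higher and 2.14% more than 2-fold lower at that pseudocount. With a pseudocount of 0.1, KAT2B (-1.17) and ABCA1 (-1.39) were more than 2-fold lower, as were 602 of the 12268 genes kept. The counts by sign below are to be read against 50.3% of all genes kept above 0 and 49.7% below 0. Among 15 other transcripts described as YTHDF2 substrates, 13 had a log2 ratio below 0 and 2 above 0, with a median of -0.36. They ran from -0.70 for EGFR, the epidermal growth factor receptor, to 0.67 for CDK2, a cyclin-dependent kinase. AXIN1 was 1 of the 2 above 0, at 5.78 FPKM in shNC and 7.77 FPKM in shY2-2, a log2 ratio of 0.37. The study chose AXIN1 by combining these libraries with published YTHDF2 binding data. It then followed AXIN1 by qPCR, western blot, a gene-specific m6A assay, pull-down of YTHDF2 with its bound RNA and an mRNA stability assay. It also knocked down AXIN1 in A549 cells with YTHDF2 knockdown, and overexpressed it in cells with YTHDF2 overexpression. Of the 15, 14 had a control peak, and all 14 also had a knockdown peak, against 84.3% of all genes with a control peak. The 6 transcripts described here all had a control peak, and 4 also had a knockdown peak by name and 3 on their own exons.

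For the partners of CREBBP and EP300 and other lysine acetyltransferases, 7 of 17 lay above 0 and 10 below, with a median of -0.14. KAT2B (PCAF), an acetyltransferase that binds both, was lowest at -0.91, and KAT7 was highest at 0.67. For the SOCS family and JAK-STAT components, 9 of 16 lay above 0 and 7 below, with a median of 0.09. SOCS5, a relative of SOCS2, was lowest at -0.84, and STAT5B, a transcription factor in the pathway that SOCS2 restrains, was highest at 0.52, beside 0.52 for SOCS2 itself.

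For NR1H3, 3 of 11 LXR partners and target genes lay above 0 and 8 below, with a median of -0.13. ABCA1, a cholesterol exporter and classic LXR target, was lowest at -0.81 (1.92 FPKM in shNC and 0.668 FPKM in shY2-2), while RXRB, a receptor that pairs with LXR, was highest at 0.33. ABCA1 and NR1H3 therefore had ratios of opposite sign. For HIVEP2, 2 of 6 of the HIVEP family and SMAD partners lay above 0 and 4 below, with a median of -0.22, from -0.55 for RELA, an NF-κB subunit, to 0.21 for SMAD1. For SON, 5 of 13 other nuclear speckle genes lay above 0 and 8 below, with a median of -0.18, from -0.95 for PNN to 0.22 for the splicing factor SRSF3.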

How the data were processed

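Input and m6A IP libraries of A549 cells were compared between shNC and shY2-2, grouped by the sample labels, with 1 library per group. Reads were aligned to GRCh38 by the authors using HISAT2, and StringTie turned the input alignments into the deposited FPKM values. For the peaks, the authors ran exomePeak once per condition, with 1 IP and 1 input library. The deposited peak columns hold the fold enrichment (ratio, IP divided by input, on a linear scale), a p-value and a log10 FDR score, converted here to an FDR. The deposited lists, used here whole, hold far more peaks than the study's text counts, and the limit behind that smaller set is not given in the sources used here. ChIPseeker gave the deposited locations. The submitters' processing notes also name fastp and HOMER. Tool versions and the annotation release are not given in the sources used here. The deposited columns of fold changes and tests between conditions were not used.

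FPKM values are not counts, so no count test was run, and the depth behind FPKM values and peaks is unknown. Log2 ratios used a pseudocount of 1 and genes with at least 1 FPKM in at least 1 input library. Every table column of per-sample values that was used belongs to a labelled sample. Peaks that repeated the position and blocks of another were counted once, and were compared between lists by at least 1 shared exonic nt on the same strand. Positions were compared with exons of GENCODE release 44 (GRCh38), with the canonical transcript as the reference transcript. Sequences were read from the GRCh38 genome. Scripts ran in Python 3.11.15 with NumPy 2.4.6, pandas 2.3.3 and matplotlib 3.10.9, and were tested on simulated data. The named genes are the 6 transcripts, YTHDF2, and the lowest and highest log2 ratio of each other list. AXIN1 was named outside this rule, after its values were seen. The transcripts and lists were chosen with earlier results of these data known.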

Additional observations from a re-analysis of the deposited data

How the results depend on the processing

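No paired analysis was possible because each group has 1 library, and no library could be left out. Under a pseudocount of 0.1, a filter of above 0 or at least 5 FPKM, median centring or a 1.5-fold limit, 0 of the 6 transcripts passed the limit in either direction, with only 2 of them left at 5 FPKM. Settings were changed 1 at a time, so the 1.5-fold limit was tried at a pseudocount of 1 only. Without a pseudocount SOCS2 passed that limit, with an FPKM ratio of 1.81. For all genes, the 2-fold counts of 121 higher and 262 lower became 315 and 602 with a pseudocount of 0.1, and 660 and 1094 at 1.5-fold. Control and knockdown peaks of the 6, 21 and 10, became 10 and 5 at an FDR of at most 0.05, 1 and 1 at 0.001, and 9 and 5 at a fold enrichment of at least 2, and the transcripts with a peak in both lists, 4, became 2, 1 and 2. With an FDR of at most 0.05 in both lists, 5 of the 5 knockdown peaks left met a control peak, rather than 8 of 10. Of the 10 control peaks left, 5 met a knockdown peak, rather than 7 of 21. The deposited locations put 7 control and 7 knockdown peaks in a 3′UTR, against 4 and 3. Leaving out peaks not fully on exons of the named gene, an alternative added after seeing the data, gave 20 and 8 peaks, with a median fold enrichment of 1.83 rather than 2.00 in shY2-2. Leaving out SON, also added then, moved this median from 1.75 to 2.29 in shNC and to 2.185 in shY2-2.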
